A study of Mus musculus with 8 samples.

Results

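The genes described here are targets and partners of ATF4 in the response to amino acid shortage. They were chosen by name from a list of 33 genes, and 32 of them had at least 1 probe set annotated with that symbol alone, out of 18193 genes on the array. Pycr1 had none and is not analysed here. Where a gene had several probe sets, the brightest on average was used. The list was proposed with earlier results of these data known, among them the values of replicate 4 and the comparison paired by replicate number. Those values are therefore given as a description, and nothing is supported by how the members were chosen.

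ATF4 is a basic leucine zipper transcription factor whose mRNA is translated better when the initiation factor eIF2 is phosphorylated, as happens when the kinase GCN2 (Eif2ak4) senses uncharged tRNA or PERK (Eif2ak3) senses stress in the endoplasmic reticulum. Together with partners of the C/EBP family it binds composite elements in the genes for amino acid transporters, for the synthesis of serine, asparagine and proline, for tRNA synthetases and for regulators such as Ddit3 and Trib3. In muscle cells the pathway is known for supplying amino acids and for release of the hormone FGF21. Because ATF4 is controlled largely at translation, the level of its own mRNA need not follow its activity.

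The arrays came from C2C12, an established mouse myoblast line. The 4 control cultures carried a lentivirus encoding scrambled RNA and the 4 knockdown cultures one encoding siRNA against DOR, the product of Trp53inp2. Per the labels, every culture received virus at a multiplicity (moi) of 100, was grown on for 5 to 7 days and was sorted, giving 93 to 99% GFP-positive cells. Differentiation followed in 5% horse serum for 4 days. The labels nevertheless name the cells of both groups confluent myoblasts, so the stage at harvest is not settled. They call the cultures of each group biological replicates 1 to 4, and those with the same number share a letter in their descriptions. How separate the transductions were is not stated, so p-values measure the spread between these cultures, which may be technical.

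Values are log2 RMA units per probe set, and array medians lay between 6.141 and 6.205. The brighter probe set of Trp53inp2 read 11.50, 11.55, 11.43 and 10.92 in scrambled cultures 1 to 4 against 9.46, 9.93, 9.49 and 9.18 in the knockdown. Scrambled culture 4 was thus also the lowest control for the targeted gene. A second, dimmer probe set of Trp53inp2 showed no fall (8.01 ± 0.10 against 8.15 ± 0.11, SD, n = 4; limma adjusted p = 0.52). The 8 myogenic markers measured, Myod1, Myog and Des among them, all had means above the median of all probe sets (6.18). Their summed log2 level ran from 95.02 to 96.55 in the scrambled and from 92.9 to 94.0 in the knockdown arrays. Within this sum 6 of the 8 differences were negative, from -1.53 for Mef2c to 0.45 for Myf5. Means at or above the median were also found for 2 of 5 haematopoietic, 0 of 4 endothelial, 2 of 4 epithelial and 0 of 3 adipocyte markers. The epithelial Cdh1 was dim and differed by -0.59 (limma adjusted p = 0.066 unpaired and 0.014 paired). Summed levels of markers of other cell types overlapped between the groups: 26.1 to 26.5 against 25.4 to 26.3 for 5 haematopoietic markers, 19.98 to 20.87 against 19.9 to 20.6 for 4 endothelial ones, 21.9 to 22.6 against 21.4 to 22.4 for 4 epithelial ones and 11.4 to 12.0 against 11.2 to 12.1 for 3 adipocyte ones. Of the control transcripts for 3′ against 5′ signal, beta-actin differed by 0.28 to 0.40 log2 units on 7 arrays and by 0.50 on DOR siRNA 2. Gapdh differed by -0.16 to -0.09 on the same 7 arrays and by 0.07 on DOR siRNA 2.

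Letters that match the core of the binding element were found before the start of some of the members. RefSeq promoter windows (GRCm38.p6) were matched for 28 of the 32 genes by symbol, all but Eif4ebp1, Cth, Slc7a5 and Slc1a5. The letters TGATGNAA, the core of the C/EBP-ATF response element, were searched on both strands of the 250 bases before each gene start. They were present for 7 of the 28 members (25%), against 3.91% of 27025 genes and 3.45% of 32851 windows. The ER stress response element, searched in the same way, was found for 0 of the 28 members and for 0.13% of genes, so that it overlapped none of the cores. The 7 stretches of 120 bases that hold the core are given below, 5′ to 3′ on the gene's strand, because they show the shared letters in genes of different roles. Capitals mark TGATGNAA read on either strand.
Chac1, chr2:119350993-119351112, plus strand: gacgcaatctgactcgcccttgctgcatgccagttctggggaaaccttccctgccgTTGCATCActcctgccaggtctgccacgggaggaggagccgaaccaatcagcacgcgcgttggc
Fgf21, chr7:45615566-45615685, minus strand: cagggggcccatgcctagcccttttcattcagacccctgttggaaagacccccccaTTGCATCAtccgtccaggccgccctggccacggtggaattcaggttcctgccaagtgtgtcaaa
Atf3, chr1:191183380-191183499, minus strand: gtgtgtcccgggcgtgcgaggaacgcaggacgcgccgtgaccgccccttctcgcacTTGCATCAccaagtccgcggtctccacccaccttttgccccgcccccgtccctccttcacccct
Asns, chr6:7693210-7693329, minus strand: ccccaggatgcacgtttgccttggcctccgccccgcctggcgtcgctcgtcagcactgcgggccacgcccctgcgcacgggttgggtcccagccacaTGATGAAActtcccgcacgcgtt
Slc7a11, chr3:50443614-50443733, minus strand: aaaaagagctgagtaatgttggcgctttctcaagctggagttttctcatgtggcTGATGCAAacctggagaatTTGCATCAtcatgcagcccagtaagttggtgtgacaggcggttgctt
Nupr1, chr7:126625517-126625636, minus strand: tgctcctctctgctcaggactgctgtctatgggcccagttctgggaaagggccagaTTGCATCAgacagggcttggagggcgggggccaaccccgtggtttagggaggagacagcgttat
Vldlr, chr19:27216770-27216889, plus strand: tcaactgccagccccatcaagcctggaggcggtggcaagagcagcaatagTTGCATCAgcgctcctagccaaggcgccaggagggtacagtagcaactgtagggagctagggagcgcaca
In Chac1, Fgf21, Atf3, Nupr1 and Vldlr the core lies on the strand opposite to the gene, 186 to 193, 132 to 139, 103 to 110, 103 to 110 and 193 to 200 bases before the start. Asns has it on its own strand, 16 to 23 bases before the start. Slc7a11 is the member with 2 cores, 40 to 47 and 59 to 66 bases before the start, facing each other. A match is a description of letters and not a shown binding site.

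As a whole the members were high in scrambled cultures 1, 2 and 3, low in culture 4 of both groups, and in between in knockdown cultures 1 to 3. Relative to each gene's mean over the 8 arrays, the median over the 32 members was 0.51, 0.54 and 0.53 log2 units in scrambled 1, 2 and 3 and -0.61 in scrambled 4. The medians were -0.08, 0.22, -0.42 and -0.65 in DOR siRNA 1 to 4. Over all 18193 genes these medians stayed between -0.020 and 0.020. The first 3 scrambled arrays were nearly alike: the median SD of a member over them was 0.11, and it was 0.59 with scrambled 4 included. In the knockdown the spread was there without culture 4 as well, with a median SD of 0.30 over cultures 1 to 3 and 0.45 over all 4. In arrays of bulk RNA, fewer responding cells and less RNA per cell cannot be told apart.

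**Figure D1:**
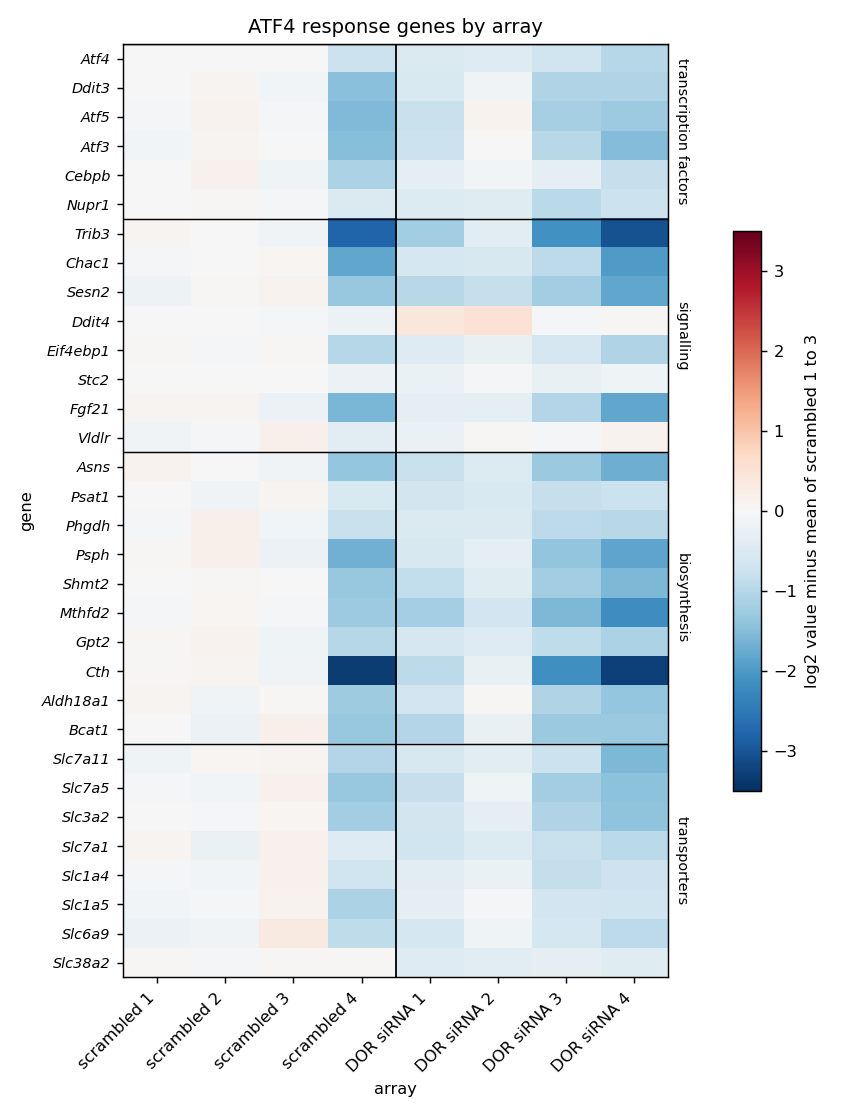
Log2 value of each of the 32 measured members (rows, grouped by role) on each array (columns), minus the gene's mean over scrambled arrays 1 to 3. Scrambled 4 and DOR siRNA 4 are the bluest columns, with medians of -0.61 and -0.65 relative to the mean over the 8 arrays, and Ddit4 and Slc38a2 are rows that do not share the pattern.

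Culture 4 lay below cultures 1 to 3 in both groups for 24 of the 32 members, a pattern shown by 15.1% of all genes. In the scrambled group alone culture 4 was the lowest for 31 members (29.9% of all genes) and in the knockdown for 24 (28.6% of all genes). The median difference between culture 4 and the mean of cultures 1 to 3 was -1.17 in the scrambled group and -0.59 in the knockdown, against 0.0040 and -0.0072 over all genes. For 30 of 32 members the difference was more negative in the scrambled group. These values were known when the list was proposed, and they are not tested. Beta-actin differed between its 3′ and 5′ ends by 0.31 on scrambled 4 and 0.29 on DOR siRNA 4, within the range of the other arrays. Gapdh differed by -0.151 on scrambled 4 and -0.164 on DOR siRNA 4, slightly below the other arrays (-0.141 to 0.065). The mean of the poly-A spike controls was 8.69 and 8.03 on these arrays, against 7.98 to 8.83 and 8.34 to 8.597 on the others of each group. The part of the spike level, of the Gapdh difference and of the lower Trp53inp2 on scrambled 4 in the members' levels was not tested.

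The 2 genes lowest in culture 4 among all 18193, by the mean over both groups, were Cth and Trib3. Cth encodes cystathionine gamma-lyase, which makes cysteine in transsulfuration. It read 9.09, 9.13, 8.91 and 5.71 in scrambled cultures 1 to 4 and 8.13, 8.79, 6.91 and 5.78 in the knockdown ones. Scrambled 4 was 10.1-fold and DOR siRNA 4 4.48-fold below the mean of the other cultures of its group, and both values lay below 6.18, where RMA values are compressed. Trib3, a pseudokinase that feeds back on ATF4, read 10.59, 10.51, 10.38 and 7.69 in scrambled and 9.26, 10.12, 8.37 and 7.44 in DOR siRNA cultures 1 to 4. Scrambled 4 lay below each of the first 3 knockdown cultures, and DOR siRNA 2 was close to the scrambled level.

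**Figure D2:**
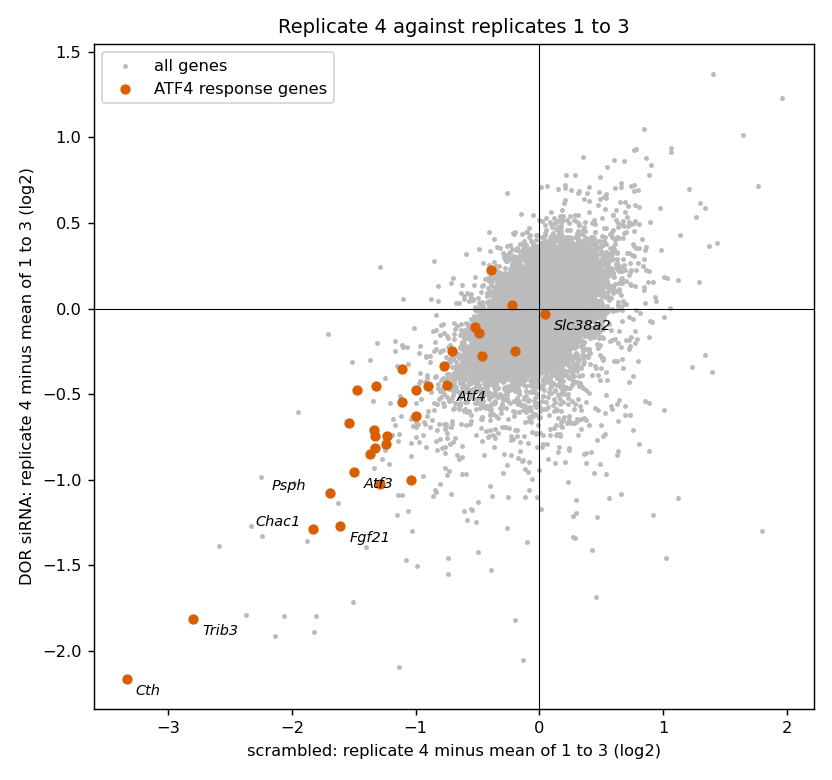
Culture 4 minus the mean of cultures 1 to 3 (log2), scrambled on the x axis and DOR siRNA on the y axis, 1 point per gene, with members in orange over all 18193 genes in grey. Members extend to the lower left, where Cth (-3.33 and -2.16) and Trib3 (-2.80 and -1.81) are the extreme points, while Slc38a2 (0.04 and -0.03) sits near 0.

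Among the 6 transcription factors, culture 4 was below the others in both groups for 4. Atf4 itself read 12.89, 12.90, 12.88 and 12.15 in scrambled cultures 1 to 4 and 12.40, 12.43, 12.21 and 11.90 in the knockdown. The knockdown cultures 1 to 3 lay between the first 3 controls and DOR siRNA 4, and scrambled 4 lay within the knockdown range. Another Atf4 probe set with means near 11 also had a lower knockdown mean (difference -0.37), and a dim one, at 6.46 to 6.69, did not. Ddit3, which encodes CHOP, a C/EBP partner and death regulator, read 10.28, 10.35, 10.16 and 8.79 in scrambled and 9.72, 10.14, 9.21 and 9.21 in the knockdown. Here scrambled 4 was the lowest of all 8 arrays. Atf3, a stress-induced repressor of the same family, read 9.23, 9.43, 9.33 and 7.84 in scrambled against 8.59, 9.35, 8.37 and 7.82 in the knockdown. Both cultures numbered 4 gave nearly the same Atf3 value. Atf5 and Cebpb also lay lower in culture 4 (by -1.54 and -1.11 in scrambled, -0.67 and -0.55 in the knockdown), and neither gene's groups were separate. Nupr1, a small chromatin-associated stress protein, read 10.93, 10.97, 10.85 and 10.42 in scrambled and 10.43, 10.50, 9.97 and 10.16 in the knockdown. Its lowest knockdown value was in culture 3.

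Effectors and signalling genes gave 5 of 8 members with culture 4 lowest in both groups. Chac1, an enzyme that degrades glutathione, read 11.76, 11.78, 11.88 and 9.98 in scrambled and 11.18, 11.24, 10.90 and 9.82 in the knockdown. The groups were separate in cultures 1 to 3, and the 2 cultures numbered 4 stood apart from all others. Fgf21, the secreted hormone, read 12.40, 12.42, 12.11 and 10.70 in scrambled and 12.00, 11.97, 11.29 and 10.48 in the knockdown. Sesn2, a sestrin that restrains mTORC1 when leucine is low, read 8.71, 8.93, 9.01 and 7.56 against 7.91, 8.09, 7.67 and 7.08. Sesn2 was thus below every one of the first 3 controls in each knockdown culture. Eif4ebp1, the translational repressor, read 11.28 and 11.21 in the 2 cultures numbered 4 and 11.67 or more in the others. Ddit4, another brake on mTORC1, did not share the pattern, with 9.43, 9.42, 9.37 and 9.20 in scrambled and 9.79, 9.91, 9.35 and 9.43 in the knockdown. Stc2 (6.68 to 6.94 over the 8 arrays) and Vldlr (5.44 to 6.02) were dim, and Vldlr was not shown to be above background. Another Stc2 probe set, nearly as bright (mean 6.63 against 6.81), ran from 5.95 to 7.19 with culture 4 lowest in both groups and a difference of -0.53 (limma adjusted p = 0.21 unpaired and 0.073 paired). The remaining Stc2 probe set, also with a mean of 6.81, had its lowest knockdown value in culture 3 (6.44, against 6.46 in culture 4). Its difference was -0.25 (limma adjusted p = 0.499 unpaired and 0.385 paired).

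All but 1 of the 10 biosynthesis genes were lowest in culture 4 of both groups. Asns, asparagine synthetase, read 12.70, 12.59, 12.47 and 11.22 in scrambled and 11.81, 12.10, 11.30 and 10.89 in the knockdown. Scrambled 4 was lower than every knockdown culture except number 4. Psph, which completes serine synthesis, read 11.15, 11.29, 10.92 and 9.43 in scrambled and 10.55, 10.79, 9.74 and 9.28 in the knockdown. Mthfd2, the mitochondrial folate enzyme, read 12.06, 12.19, 12.07 and 10.82 against 10.91, 11.43, 10.53 and 9.93. In Mthfd2 the knockdown arrays reached lower values than scrambled 4 on 2 arrays, DOR siRNA 3 and 4. Shmt2, which feeds serine carbon into the same folate cycle, read 11.30, 11.36, 11.31 and 10.00 in scrambled and 10.46, 10.91, 10.09 and 9.74 in the knockdown. Phgdh, the first enzyme of serine synthesis, read 11.92, 12.15, 11.87 and 11.21 against 11.48, 11.48, 11.05 and 10.9996. Gpt2, mitochondrial alanine aminotransferase, was 11.30, 11.40, 11.11 and 10.27 in scrambled and 10.68, 10.81, 10.39 and 10.15 in the knockdown. Psat1, between Phgdh and Psph in the serine pathway, was the exception by the probe set used. It read 13.06, 12.94, 13.16 and 12.53 in scrambled and 12.41, 12.52, 12.25 and 12.29 in the knockdown, without overlap of the groups. The other Psat1 probe set (mean 11.82) was lowest in culture 4 of both groups, with 11.39 in DOR siRNA 4 against 11.42 in DOR siRNA 3. Aldh18a1 of proline synthesis and Bcat1, a branched-chain aminotransferase, were lower in scrambled 4 by -1.24 and -1.32 than the mean of the other controls.

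Transporters of amino acids followed in 6 of 8 cases. Slc7a11, the cystine carrier, read 5.88, 6.09, 6.12 and 4.99 in scrambled and 5.47, 5.67, 5.27 and 4.47 in the knockdown. These levels are under 6.18, and Slc7a11 was not shown to be above background. Slc7a1, a carrier of cationic amino acids, read 11.16, 10.82, 11.21 and 10.60 against 10.38, 10.59, 10.27 and 10.13, and its groups did not overlap. Slc38a2, the sodium-coupled carrier SNAT2, read 12.30, 12.19, 12.29 and 12.30 in scrambled and 11.80, 11.90, 11.91 and 11.84 in the knockdown. Scrambled 4 sat with the other controls in Slc38a2, whereas it was the lowest control for the other 31 members. The subunits of the leucine carrier, Slc7a5 and Slc3a2, lay lower in culture 4 by -1.33 and -1.23 in scrambled and by -0.71 and -0.75 in the knockdown. For Slc1a4, Slc1a5 and Slc6a9 the scrambled values of culture 4 were -0.70, -1.11 and -0.90 from the mean of the others.

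**Figure D3:**
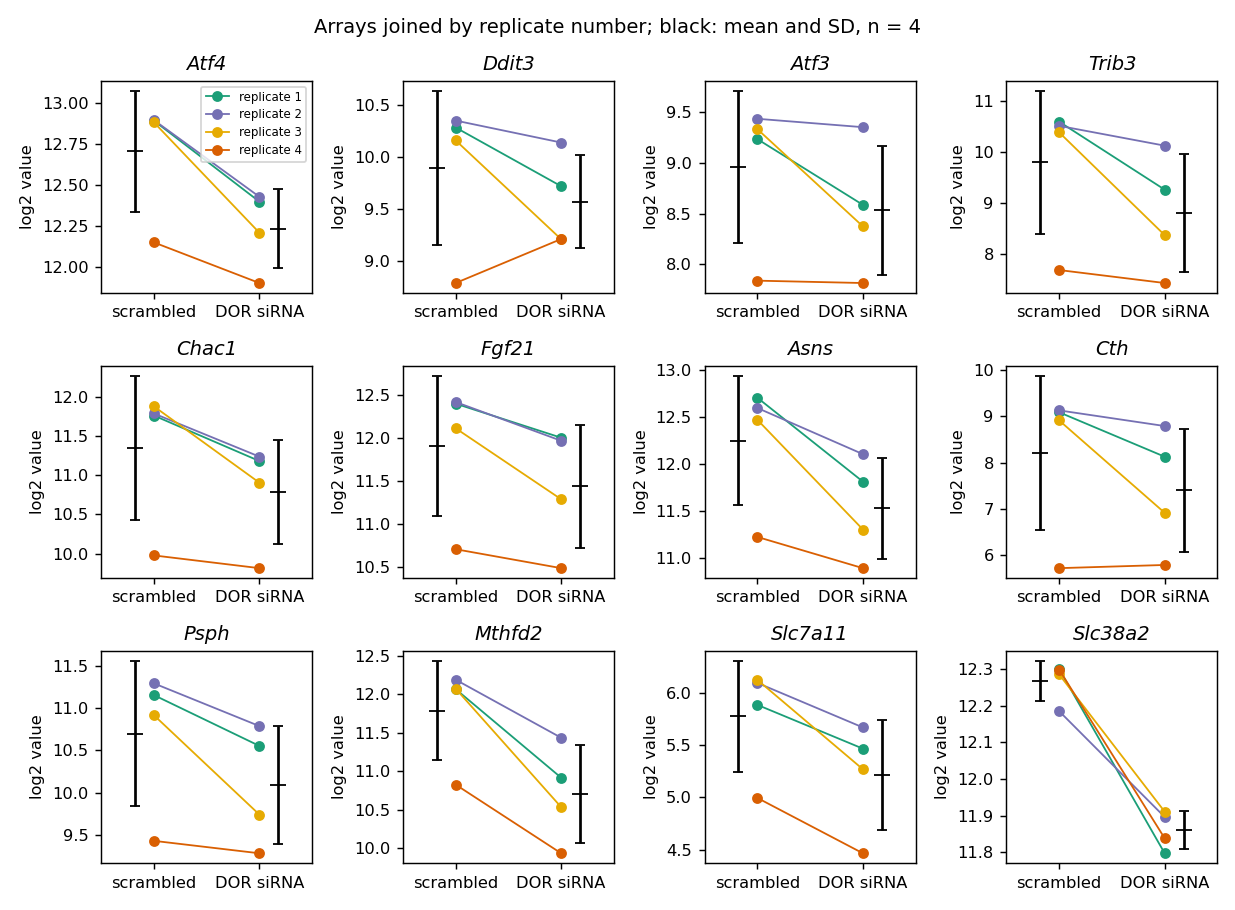
Log2 values of 12 members by group, with cultures of the same number joined by a line and the group mean ± SD (n = 4) in black. Culture 4 (dark orange) starts low in the scrambled group for all but Slc38a2, where the 4 scrambled values (12.19 to 12.30) lie together above the 4 knockdown values (11.80 to 11.91).

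The comparison of the knockdown with the control asks which of these transcripts differ when DOR is reduced. Its results were known when the list was proposed, so counts and p-values describe these arrays and are not independent support. The difference was negative for 30 of 32 members, with a median of -0.52 log2 units against 0.015 over all genes, and the exceptions were Ddit4 (0.27 ± 0.12, SE) and Vldlr (0.07 ± 0.12). In the unpaired limma fit over all 45037 probe sets 3 of 32 members passed an adjusted p of 0.05, all lower, where 1.45% of all genes were lower by that rule. These were Slc38a2 (-0.41 ± 0.07, limma adjusted p = 0.012), Psat1 (-0.55 ± 0.13, adjusted p = 0.043) and Slc7a1 (-0.61 ± 0.14, adjusted p = 0.046). The same 3 members were the ones whose groups did not overlap, as for 4.13% of all genes. Their group means were 12.27 ± 0.06 and 11.86 ± 0.05 (SD, n = 4) for Slc38a2, 12.92 ± 0.28 and 12.37 ± 0.12 for Psat1, and 10.95 ± 0.29 and 10.34 ± 0.19 for Slc7a1. By the mean over its 3 probe sets Slc38a2 no longer passed and its difference was -0.22 (limma adjusted p = 0.081). Another bright probe set of Slc7a1 (mean 10.11) had a difference of -0.46 and overlapping groups (limma adjusted p = 0.29 unpaired and 0.155 paired). The other Psat1 probe set (mean 11.82) had a difference of -0.555, also with overlap (limma adjusted p = 0.089 unpaired and 0.033 paired).

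Pairing the cultures by number raised the count. With the replicate number as a block 15 of 32 members fell and 0 rose, where 3.16% of all genes were lower. With raw p below 0.05 instead, 25 were lower and 1 was higher, where 8.65% of all genes were lower and 13.3% higher. The differences themselves are the same in both fits, while the median standard error of a member was 0.29 unpaired and 0.12 paired. Mthfd2 had the largest fall (-1.08 ± 0.12, limma adjusted p = 0.0032 paired and 0.12 unpaired). Sesn2 fell by 0.87 ± 0.12 (paired limma adjusted p = 0.0066), Asns by 0.72 ± 0.13 (0.016), Shmt2 by 0.69 ± 0.14 (0.025) and Psph by 0.61 ± 0.14 (0.040). The 7 enzymes called among 10 also included Psat1, Phgdh (-0.53 ± 0.10) and Gpt2 (-0.51 ± 0.10). Among the factors 2 of 6 were called, Atf4 (-0.47 ± 0.09, 0.016) and Nupr1 (-0.53 ± 0.10, 0.019). Chac1 (-0.57 ± 0.12) and Fgf21 (-0.47 ± 0.10) joined Sesn2 among 8 effectors, and Slc7a11 (-0.56 ± 0.09) joined Slc38a2 and Slc7a1 among 8 transporters.

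Members that missed the threshold in the paired limma fit included the ones that varied most. Trib3 differed by -0.99 ± 0.25 (adjusted p = 0.052), Slc3a2 by -0.55 ± 0.14 (0.053), Eif4ebp1 by -0.34 ± 0.10 (0.094) and Cth by -0.81 ± 0.27 (0.13). Slc7a5 (-0.58 ± 0.19), Bcat1 (-0.64 ± 0.22), Atf3 (-0.43 ± 0.15) and Ddit4 (0.27 ± 0.09) had paired limma adjusted p of 0.13 to 0.15, and Slc1a4 (-0.37 ± 0.14) had 0.20. Aldh18a1 (-0.45 ± 0.18) had a paired limma adjusted p of 0.22, and Slc6a9 (-0.34 ± 0.15) 0.24. For Atf5 (-0.40 ± 0.20) it was 0.33, for Ddit3 (-0.33 ± 0.18) 0.40, and for Stc2, Cebpb, Slc1a5 and Vldlr between 0.51 and 0.85. A p that misses the threshold does not show that these genes were alike in the groups. The probe set used also mattered. In the paired limma fit a dimmer probe set passed for Ddit3 (-0.40, adjusted p = 0.048), Bcat1 (-0.66, 0.020) and Eif4ebp1 (-0.45, 0.032). A further probe set of Bcat1 (paired limma adjusted p = 0.85) and of Eif4ebp1 (0.13) did not pass. Of members called paired, further probe sets missed for Atf4 (paired limma adjusted p = 0.095 and 0.74), Sesn2 (0.051) and Gpt2 (0.064). They also missed for Shmt2 (0.079 and 0.060), Slc7a1 (0.155 and 0.44) and Slc38a2 (0.12 and 0.93). Gpt2 (0.047 and 0.019) and Shmt2 (0.036) had others that passed. For Asns, Mthfd2, Phgdh, Psat1, Nupr1 and Slc7a11 every further probe set passed.

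**Figure D4:**
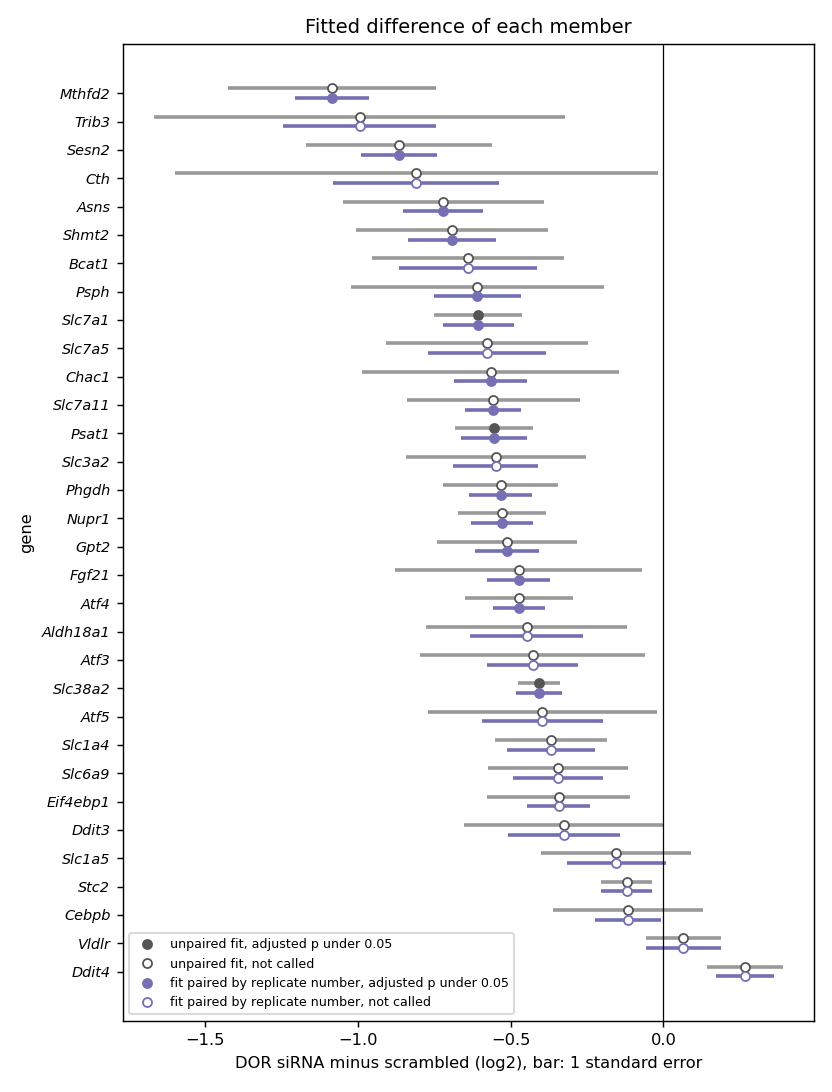
Fitted difference DOR siRNA minus scrambled (log2, x axis) for each of the 32 members (y axis) with 1 standard error, grey for the unpaired and purple for the paired fit, filled where the adjusted p over all probe sets is under 0.05. The points coincide, the bars shorten from a median of 0.29 to 0.12, and filled points number 3 unpaired and 15 paired.

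Pair by pair, the median difference of the members was -0.59 for cultures numbered 1, -0.28 for 2, -0.95 for 3 and -0.14 for 4. The knockdown culture was the lower of the pair for 31, 29, 32 and 23 members respectively, and for 22 members in all 4 pairs (12.5% of all genes). Of all 18193 genes, the knockdown culture was the lower for 8359, 9183, 7925 and 8423 in pairs 1 to 4. For 25 members the pair numbered 4 had the smallest fall or a rise, and the share of all genes with this was not computed. Ddit3 was higher in the knockdown by 0.42 in that pair, and lower by -0.56, -0.21 and -0.95 in pairs 1 to 3. Mthfd2 was lower in the knockdown in all 4 pairs, with -1.15, -0.75, -1.54 and -0.89 in pairs 1 to 4. Whether pair 4 differs from the others was not tested.

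Without both cultures numbered 4 the groups separated more clearly. The low values of these cultures were known when the list was proposed, so the counts that follow are a description and no support. The fits compared here also share the arrays of cultures 1 to 3. In cultures 1 to 3 the knockdown lay wholly below the scrambled values for 24 of 32 members, against 9.21% of all genes. The unpaired limma fit of 3 against 3 arrays then called 14 members lower, where 1.81% of all genes were lower, and 13 of these 14 were also among the 15 of the paired fit. The median difference was -0.61. Sesn2 (-0.99 ± 0.13, limma adjusted p = 0.0061), Chac1 (-0.70 ± 0.11, 0.010) and Mthfd2 (-1.15 ± 0.19, 0.012) had low adjusted p in this fit. Leaving out scrambled 4 alone gave 13 members lower. It was 1, Slc38a2, without scrambled 1, 2 or 3 or without DOR siRNA 1, 3 or 4, and 3 without DOR siRNA 2. The share of all genes called lower is not given for these fits with 1 array left out. Calls over all probe sets also changed with the array left out, so these member counts stand without a comparison.

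Within the knockdown, culture 2 stood nearest to the controls. DOR siRNA 2 was the highest knockdown array for 28 members. Over all 18193 genes it was the highest for 6008, against 3485, 4183 and 4517 for DOR siRNA 1, 3 and 4. On DOR siRNA 2, 24 of 32 members were below all of scrambled 1 to 3, against 31 on DOR siRNA 1, 31 on DOR siRNA 3 and 30 on DOR siRNA 4. The order scrambled 1 to 3, then DOR siRNA 2, 1, 3 and 4 held for 19 members. The shares of all genes below scrambled 1 to 3 on each knockdown array, and in this order, were not computed. DOR siRNA 2 was also the array with the highest value for Trp53inp2 in the knockdown (9.93) and the largest 3′ to 5′ difference of beta-actin (0.50), and the part of either in these levels was not tested.

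Other genes of the pathway were taken from lists by function. Of 19 cytosolic tRNA synthetases, 15 were lowest in culture 4 of both groups (15.1% of all genes), with medians of -0.61 in scrambled and -0.35 in the knockdown. In the unpaired limma test 0 passed (10 lower with raw p below 0.05, as were 6.55% of all genes), and 6 fell in the paired fit (3.16% of all genes). Eprs, the synthetase for glutamate and proline, lay lower in culture 4 by -1.12 in scrambled and -0.63 in the knockdown and fell by 0.85 ± 0.17 between the groups (paired limma adjusted p = 0.021). Lars, for leucine, lay lower by -0.90 and -0.60 and fell by 0.52 ± 0.11 (0.027). Of 14 further ATF4 targets, 8 were lowest in culture 4 of both groups, against the same 15.1% of all genes. In the unpaired limma test 0 passed (3 lower with raw p below 0.05, against 6.55% of all genes). In the paired fit 3 fell, against 3.16% of all genes: Herpud1, Gadd45a and the synthetase Cars, which the tRNA synthetase list also holds, all 3 named after their values were seen. Aldh1l2 of mitochondrial folate metabolism was lower in culture 4 by -1.51 in scrambled and -0.31 in the knockdown. Ppp1r15a is on this list too and is described with the eIF2 genes.

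The upstream machinery held genes with differences in both directions, from -0.42 to 0.34. Of 15 genes for eIF2, its kinases, its exchange factor and its phosphatases, 3 were lowest in culture 4 of both groups (15.1% of all genes). In either limma fit 0 passed, where 1.45% of all genes were lower unpaired and 3.16% paired. With raw p below 0.05, 2 were lower and 1 higher unpaired, where 6.55% of all genes were lower and 11.5% higher. Paired, 3 were lower and 1 higher, where 8.65% of all genes were lower and 13.3% higher. Without both cultures numbered 4, 1 was called lower (1.81% of all genes) and 1 higher (647 of 18193 genes). Their median difference was -0.0048. Ppp1r15a, the phosphatase subunit that reverses eIF2 phosphorylation, had the lowest culture 4 values of the list, by -1.21 in scrambled and -0.55 in the knockdown. Gcn1, which helps activate GCN2, lay lower in culture 4 by -0.54 in scrambled and -0.25 in the knockdown.

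Genes of the endoplasmic reticulum gave a mixed picture. Of 19 chaperones, folding factors and sensors, 8 were highest in culture 4 of both groups (11.8% of all genes) and 2 were lowest. The median for culture 4 was 0.39 in scrambled and 0.051 in the knockdown, where 7 of the 19 values were negative. Atf6, a stress sensor, was lower in culture 4 by -0.45 in scrambled and -0.36 in the knockdown. Hspa5, the chaperone BiP, read 12.75, 12.59, 12.80 and 13.44 in scrambled and 13.04, 12.97, 13.13 and 13.26 in the knockdown. Manf was higher in culture 4 by 0.80 and 0.27. In the paired fit 1 of the 19, Calr (named after its values were seen), rose (0.41 ± 0.10, limma adjusted p = 0.041), where 5.10% of all genes were higher. In the unpaired limma fit 0 rose, where 3.11% of all genes did. Raw p was below 0.05 in that fit for 1 higher and 1 lower, against 11.5% and 6.55% of all genes.

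Contractile genes give a measure of differentiation. Of 25, 14 were lowest in culture 4 of both groups (15.1% of all genes), with medians of -0.13 in scrambled and -0.34 in the knockdown. In the unpaired limma fit 11 fell (1.45% of all genes) and in the paired fit 17 (3.16%). Actn2, a Z-disc actinin, fell by 1.71 ± 0.20 (unpaired limma adjusted p = 0.0021) and Neb, nebulin, by 0.90 ± 0.11 (0.0024). Their median pair differences were -0.37, -0.55, -0.58 and -0.63 in pairs 1 to 4, so that pair 4 was not the smallest there. Of 24 cell cycle genes 0 were lowest in culture 4 of both groups (15.1% of all genes). In the unpaired limma fit 14 rose (3.11% of all genes) and in the paired fit 20 (5.10%). Tk1, thymidine kinase, rose by 0.81 ± 0.09 (unpaired limma adjusted p = 0.0013) and Ccnd1, cyclin D1, by 1.012 ± 0.11 (0.0020). The part of the stage of differentiation in the levels of the ATF4 response genes was not tested.

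**Figure D5:**
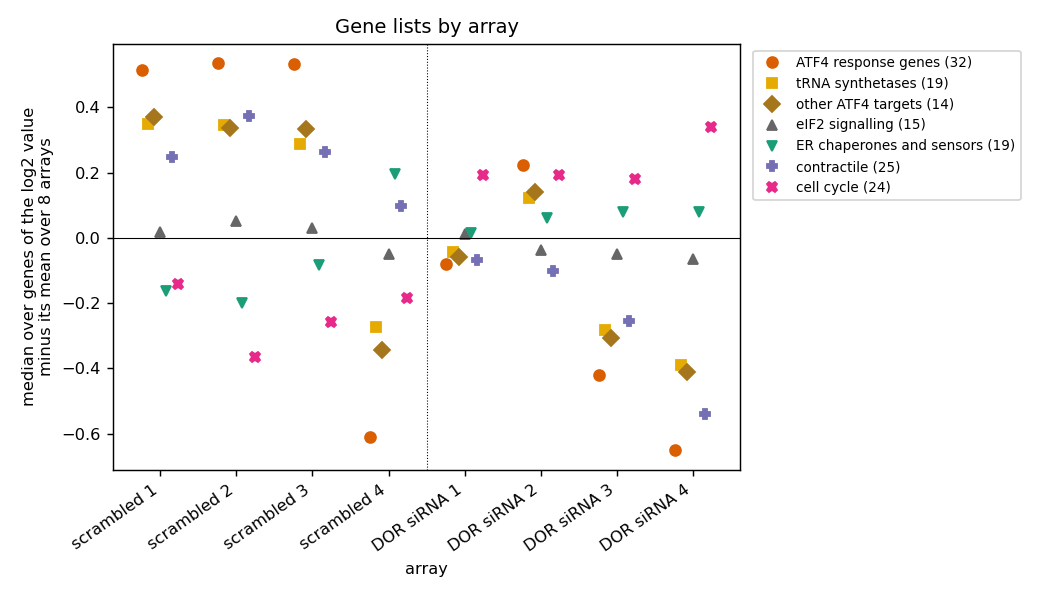
Median over the genes of each list of the log2 value minus the gene's mean over the 8 arrays (y axis) for each array (x axis), with the number of genes in brackets. ATF4 response genes run from 0.54 on scrambled 2 to -0.65 on DOR siRNA 4, tRNA synthetases and further targets follow them at smaller size, the eIF2 list's medians stay near 0, and ER chaperones are highest on scrambled 4.

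Across all probe sets of the members the picture held for most. The 32 members had 75 probe sets, and 23 members had more than 1. The difference was negative for 69 of the 75, and culture 4 was lowest in both groups for 53.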

How the data were processed

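Expression was measured on 8 Affymetrix arrays, 4 per group, from 25 ng of amplified total RNA each. The deposited values are log2 expression values per probe set that the authors made with RMA, which the submitters' processing notes name without version or options. It subtracts background, equalises array distributions by quantiles and summarises probes. Quantile normalization hides a shift of all transcripts, and differences of dim probe sets are compressed. The number of arrays limits the precision.

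Of 45101 probe sets, 64 Affymetrix controls were left out and 45037 tested. The platform annotation gave 1 symbol for 34945, several for 932 and none for 9160; 34741 of the first matched a RefSeq gene ID, and 18193 genes resulted. The group difference was fitted by limma 3.58.1 under R 4.3.3 (lmFit, eBayes, two-sided), first unpaired and then blocked on replicate number, with Benjamini-Hochberg adjustment across probe sets. The steps were tested on simulated data with independent noise for each probe set. These held no replicate effect particular to some genes, so they cannot check the paired fit for such genes. After subtracting group means, arrays sharing a number had correlations of 0.14 to 0.47, above 0.1 in all 4 pairs. Arrays with different numbers had -0.39 to 0.27, and for 5 of the 8 the same-numbered array was the closest. By the rule of 0.1 in every pair, the numbers, with the shared letters of the descriptions, were taken as pairing the cultures. Alternatives left out single arrays or both arrays numbered 4, averaged probe sets, applied cyclic loess, used a variance trend with a robust prior, or left out dim probe sets.

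Members and lists were chosen with earlier results of these data known. Values on every array are given for Atf4, Ddit3, Trib3 and Asns, for members called in either fit and for the 6 lowest in replicate 4 (from both groups' mean deviation). Fitted differences also cover members with raw p below 0.05. From the other lists up to 2 genes called unpaired, or else the 2 with the largest replicate 4 deviation, are named. Beyond this rule, Herpud1, Gadd45a, Cars, Calr, Atf6 and the per-array values of Ddit4 were added after their values were seen. Figures were drawn with matplotlib 3.10.9.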

Additional observations from a re-analysis of the deposited data

Results flagged for a closer look

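Of the 64 groups of 4 arrays, 2 for each of 32 members, 16 held an array whose distance to its nearest neighbour exceeded Dixon's critical share of the group's range. Chance gives about 1 in 20 such groups where none was picked beforehand. Here the low values of replicate 4 were known when the list was proposed and the members are not independent of each other, so the count is a description and no test. In 15 of the 16 the array was scrambled 4, as the lowest of its group, and in 0 was it DOR siRNA 4. The log2 values on scrambled 4 were Atf4 (12.15), Ddit3 (8.79), Atf5 (9.37), Atf3 (7.84), Trib3 (7.69), Chac1 (9.98), Eif4ebp1 (11.28), Stc2 (6.71), Asns (11.22), Shmt2 (10.00), Mthfd2 (10.82), Cth (5.71), Aldh18a1 (10.21), Slc7a5 (11.09) and Slc3a2 (11.74). In the remaining case, Slc38a2, the array set apart was scrambled 2 as the lowest (12.19), within a group whose SD was 0.06.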

How the results depend on the processing

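The number of members lower in the knockdown, 3 in the unpaired limma fit, was 15 with the replicate block (paired fit), 14 without both replicate 4 arrays and 15 with the paired fit without them, the last chosen after seeing the data. Leaving out 1 array gave 1 to 13. Over all probe sets and in both directions together, 1452 calls became 2827 with the block and 608 to 2310 with 1 array left out. The share of all genes called lower is not given with 1 array left out or for the paired fit without both replicate 4 arrays. Nor is it given for the settings named next, so those counts stand without a comparison. The counts by the mean over probe sets (2), cyclic loess (3), a variance trend (3) and without dim probe sets (3) stayed within 1.5 times the first. No member was called higher under any of these settings. The members' median difference of -0.52 ran from -0.76 (without scrambled 4) to -0.32 (without DOR siRNA 4). The median of replicate 4 against the other scrambled arrays, -1.17, was -1.20 to -1.17 with 1 of the 6 arrays numbered 1 to 3 left out, -0.98 by the mean over probe sets, -1.16 with cyclic loess and -1.23 without dim probe sets. The spread it was judged by, between scrambled 1 to 3, was only 0.011. Signs turned for 2 uncalled members: Vldlr was -0.0884 without both replicate 4 arrays in either fit, -0.0743 by the mean over probe sets and -0.0324 (without scrambled 4) to 0.1611 with 1 array left out, and Cebpb was -0.3938 to 0.0316, above 0 without scrambled 2 or DOR siRNA 4. The cause was not tested. Signal over background limits Vldlr, Slc7a11 and the low values of Cth.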

Other observations

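Among the 20 genes lowest in replicate 4 by the mean over both groups, 5 were members of the ATF4 list, Cth, Trib3, Chac1, Fgf21 and Psph, and 19 of the 100 lowest were members. The 15 other genes of the 20 were Cfap52, Ckmt2, Glrp1, Usp17la, Dpep1, Lrmda, Satb1, Esrrg, Cox6a2, Cdsn, Postn, Casq1, Pck2, Mpp3 and Tpd52l1, from the lowest upward. Cfap52 was lower in culture 4 by -2.37 in scrambled and -1.79 in the knockdown. Ckmt2, the sarcomeric mitochondrial creatine kinase, was lower by -2.14 and -1.92, and Glrp1 by -2.59 and -1.39. Satb1, a chromatin organiser, was lower by -1.80 in both groups. Casq1, the calcium buffer of the sarcoplasmic reticulum, was lower by -1.50 and -1.71, and Pck2, mitochondrial phosphoenolpyruvate carboxykinase, by -1.99 and -1.02. The genes given with values were chosen after those were seen.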
